A study of Rattus norvegicus with 16 samples.

Results

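Mast cells and eosinophils were followed through 10 of their genes among the 14476 genes of the count table. The genes were chosen by symbol as rows of that table, and all 10 listed symbols were present. Of these, 7 mark mast cells (Mcpt2, Cma1, Cpa3, Kit, Fcer1a, Hdc and Tph1) and 3 mark eosinophils (Prg2, Prg3 and Epx). The list was drawn up with results of these same libraries known, and which comparison was then in view was not recorded. All fold changes and adjusted p-values of the 10 genes are therefore given as a description and not as independent support.

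The samples came from 4 Sprague-Dawley rats whose age and sex the labels do not give. Each rat had a plated osteotomy in both limbs. On the spacer side the gap held a block of PMMA (polymethylmethacrylate bone cement), as in the Masquelet procedure, in which a membrane grows around such a spacer. The other gap was left empty. After 4 weeks, 4 tissues were taken from every rat, which gave 16 libraries in 4 groups of 4. IM is the induced membrane around the spacer, and PFNU (pre-fibrous non-union) is the tissue that filled the empty gap. PMMA bone is the bone beside the spacer, and BNED is the bone next to the empty defect. Every sample thus came from an operated and plated limb, and no uninjured tissue was included. A group holds 1 library per rat, so the 4 groups share their animals.

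The libraries held 40472228 to 76815879 counts. Osteoblast and osteocyte genes (7 genes) took 0.763 to 0.892% of the counts in PMMA bone and 0.258 to 0.739% in BNED. In PFNU they took 0.0281 to 0.223% and in IM 0.00412 to 0.265%, so that the highest membrane reached the range of BNED. Skeletal muscle genes (10 genes) took 1.99 to 17.9% of the counts in IM and 5.50 to 13.4% in PFNU, against 0.160 to 1.01% in PMMA bone and 0.337 to 3.60% in BNED. The PMMA bone library of rat 1 stood apart, with 6.39% erythroid counts against 0.355 to 1.09% in the other 3 PMMA bone libraries. For both comparisons with PMMA bone, the fold changes that this library moved most are given with and without it.

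Mast cells arise from bone marrow progenitors and mature in the tissue, where the receptor tyrosine kinase Kit and its ligand, stem cell factor, keep them alive. Their granules hold histamine, serotonin, heparin-bearing serglycin and large amounts of proteases, which are released when antigen crosslinks IgE on the high-affinity receptor. Eosinophils leave the marrow as granule-laden cells under interleukin-5 and follow eotaxins into tissue. Both lineages depend on GATA transcription factors.

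The stretches of DNA before the start of each gene are shown first, because GATA factors act on promoters of both lineages. RefSeq's promoter table (rat build GRCr8) held 8 of the 10 genes, and Mcpt2 and Prg2 were not matched. In each, the 250 bases before the annotated start were searched on both strands for the GATA letters AGATAA or TGATAA. Of the 8 promoters 4 held a match, against 16.9% of all 33465 promoter windows of the same length. The 4 are printed 5′ to 3′ in the direction of the gene, with the matched letters in capitals. Cpa3 lies at chr2:104673238-104673487, Cma1 at chr15:33390134-33390383 and Fcer1a at chr13:88224680-88224929, all on the minus strand, and Prg3 at chr3:90478904-90479153 on the plus strand.
Cpa3: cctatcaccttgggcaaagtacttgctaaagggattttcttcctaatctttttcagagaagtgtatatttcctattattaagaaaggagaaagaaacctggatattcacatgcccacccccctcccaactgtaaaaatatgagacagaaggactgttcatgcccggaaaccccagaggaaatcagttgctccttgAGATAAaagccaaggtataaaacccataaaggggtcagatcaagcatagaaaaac
Cma1: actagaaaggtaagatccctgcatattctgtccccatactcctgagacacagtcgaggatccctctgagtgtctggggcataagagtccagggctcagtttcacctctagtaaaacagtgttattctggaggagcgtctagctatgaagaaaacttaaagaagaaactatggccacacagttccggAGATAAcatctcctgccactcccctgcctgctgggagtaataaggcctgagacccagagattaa
Fcer1a: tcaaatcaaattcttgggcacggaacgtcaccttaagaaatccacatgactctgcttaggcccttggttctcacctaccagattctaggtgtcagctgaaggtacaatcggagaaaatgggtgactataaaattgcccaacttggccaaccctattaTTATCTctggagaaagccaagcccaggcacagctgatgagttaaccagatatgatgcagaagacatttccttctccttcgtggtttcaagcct
Prg3: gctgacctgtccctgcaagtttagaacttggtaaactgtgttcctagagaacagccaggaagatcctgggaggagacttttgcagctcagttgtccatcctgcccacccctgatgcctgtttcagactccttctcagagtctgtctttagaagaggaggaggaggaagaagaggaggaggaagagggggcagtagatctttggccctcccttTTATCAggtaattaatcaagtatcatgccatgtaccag
The match began 55 bases before the start in Cpa3 and 64 bases before it in Cma1, in the direction of the gene in both. In Fcer1a (93 bases before the start) and Prg3 (38 bases) the letters lay on the opposite strand. The letters CACATG or CACGTG, which the mast cell factor MITF can bind, were found in 3 of the 8 promoters (Cpa3, Fcer1a and Epx) against 17.1% of all windows. The letters GAGGAAG of the ETS family were found in 1 of 8 (Prg3) against 10.2%. A match describes the letters only and was not tied to binding in these tissues. The part of these letters in the levels of the genes was not tested.

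Group means of all 10 genes had the same order, with IM lowest, then PFNU, then PMMA bone, and BNED highest. Levels are in CPM (counts per 1000000 counts of the TMM-scaled library), and a value for 1 gene cannot be set against that of another because transcript length was not used. The ratio of the BNED mean to the IM mean ran from 4.28 for Kit to 112 for Mcpt2 among the mast cell genes, and from 201 for Prg3 to 584 for Epx among the eosinophil genes. In bulk tissue, fewer cells of a type and less RNA per cell cannot be told apart. All 10 genes passed the filter on low counts. Prg3 and Epx passed it only through their counts in bone, so a difference between bone and defect tissue was built into their passing.

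**Figure D1:**
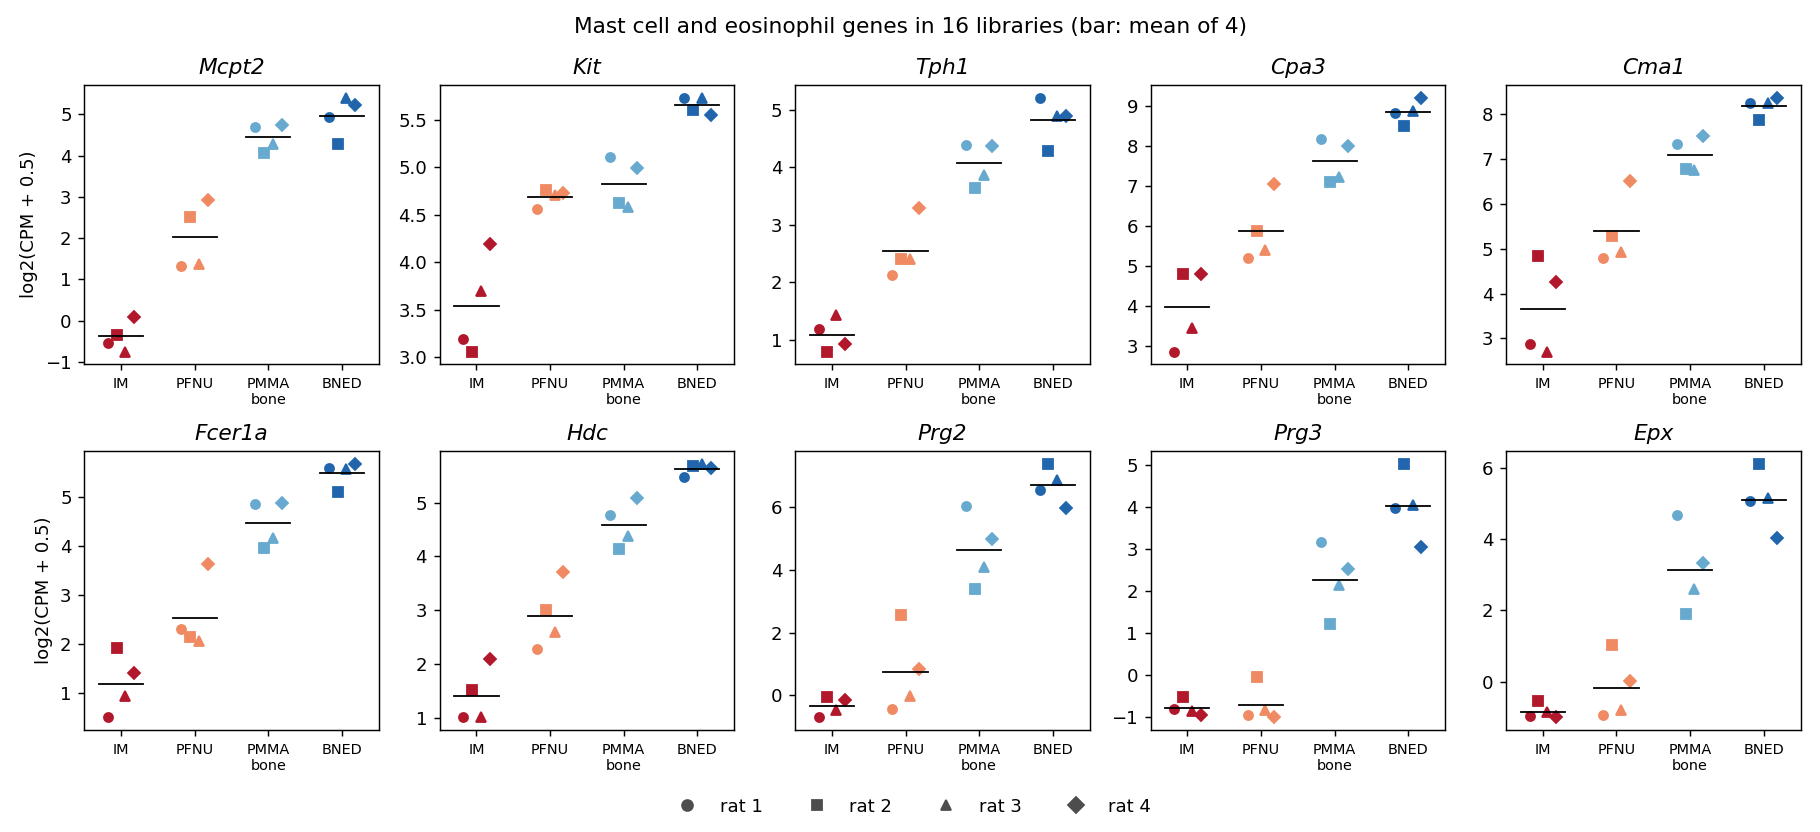
Level of each of the 10 genes in the 16 libraries, as log2 of CPM plus 0.5 on the vertical axis, with the 4 groups along the horizontal axis, a marker shape for each rat and a bar at the mean of 4 libraries. The means rise from IM over PFNU and PMMA bone to BNED in all 10 panels, and the axes differ between panels.

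Mcpt2, a chymase-like granule protease best known from mucosal mast cells, had 0.192, 0.284, 0.0963 and 0.573 CPM in the membranes of rats 1 to 4. In PFNU it had 1.99, 5.18, 2.08 and 7.05 CPM. PMMA bone had 25.4, 16.2, 18.8 and 26.1 CPM, and BNED had 30.1, 19.0, 41.8 and 37.2 CPM. Every membrane lay below every PFNU library, every PFNU library below both bones, and the bones overlapped. The counts behind the membrane values were 5 to 29 reads per library.

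Cpa3, the mast cell carboxypeptidase that is stored with the chymases, had 6.72, 27.3, 10.4 and 27.2 CPM in IM and 35.9, 58.1, 41.4 and 131 CPM in PFNU. PMMA bone had 289, 136, 149.5 and 253 CPM, and BNED had 453, 359, 468 and 590.4 CPM. The 4 groups did not overlap, although PFNU of rat 4 came close to the lowest PMMA bone library. Cma1, the chymase of connective tissue mast cells, had 6.83, 28.0, 6.03 and 18.5 CPM in IM and 27.3, 38.7, 30.1 and 90.8 CPM in PFNU. In PMMA bone it had 162, 109, 108 and 182 CPM, and in BNED 302, 232, 305 and 330.2 CPM. The membrane of rat 2 lay just above the PFNU library of rat 1, and the other neighbouring groups were separate.

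Kit had 8.60, 7.83, 12.5 and 17.8 CPM in IM, and PFNU was even across rats at 23.1, 26.5, 25.7 and 26.0 CPM. PMMA bone had 33.9, 24.1, 23.5 and 31.3 CPM and BNED 52.7, 48.2, 52.5 and 46.2 CPM. PFNU and PMMA bone overlapped, so Kit did not separate the empty-gap tissue from the bone beside the spacer. Fcer1a encodes the IgE-binding chain of the high-affinity IgE receptor. It had 0.921, 3.28, 1.43 and 2.15 CPM in IM and 4.48, 3.95, 3.70 and 11.9 CPM in PFNU. PMMA bone had 28.6, 15.04, 17.5 and 28.9 CPM, and BNED had 47.5, 33.8, 46.8 and 50.8 CPM. The 4 groups were separate, and rat 4 gave the highest PFNU value.

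Hdc, which makes histamine from histidine, had 1.52, 2.38, 1.54 and 3.79 CPM in IM and 4.37, 7.52, 5.59 and 12.7 CPM in PFNU. PMMA bone had 26.6, 17.0, 20.3 and 33.4 CPM, and BNED was even at 44.2, 50.5, 52.4 and 49.8 CPM. No neighbouring groups overlapped. Tph1, the rate-limiting enzyme of serotonin synthesis outside the nervous system, had 1.78, 1.24, 2.21 and 1.40 CPM in IM and 3.85, 4.79, 4.80 and 9.27 CPM in PFNU. In bone it had 20.4, 12.1, 14.2 and 20.2 CPM in the PMMA group and 36.6, 18.9, 29.1 and 29.1 CPM in BNED. The 2 bones overlapped through rat 2 of BNED, and the other neighbours were separate.

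Prg3 and Epx had few counts in most libraries of the defect tissue, and Prg2 had more. Prg2, the major basic protein of the eosinophil granule, had 0.115, 0.469, 0.231 and 0.415 CPM in IM and 0.238, 5.37, 0.498 and 1.31 CPM in PFNU. PMMA bone had 65.0, 10.05, 16.5 and 31.1 CPM, and BNED had 92.6, 166, 116 and 62.6 CPM. IM overlapped PFNU, and PMMA bone of rat 1 lay above BNED of rat 4. Epx, the eosinophil peroxidase, had 0.0192, 0.184, 0.0578 and 0 CPM in IM and 0.0216, 1.56, 0.0831 and 0.513 CPM in PFNU. PMMA bone had 24.9, 3.26, 5.59 and 9.48 CPM, and BNED had 33.1, 68.7, 34.9 and 15.9 CPM. The 0 in the membrane of rat 4 allows up to 0.0592 CPM (3 counts), which covers counting error only. Prg3, a homologue of the major basic protein, had 0.0768, 0.201, 0.0578 and 0.0197 CPM in IM and 0.0216, 0.467, 0.0623 and 0 CPM in PFNU, where the 0 of rat 4 allows up to 0.0700 CPM. It had 8.52, 1.85, 3.92 and 5.29 CPM in PMMA bone and 15.3, 32.3, 16.1 and 7.83 CPM in BNED. Defect tissue and bone were separate for both genes, and within each pair of groups the libraries overlapped.

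Rat 2 ranked differently by tissue for the eosinophil genes. Summed over the 3 genes it had the highest level of its group in IM (0.853 CPM), PFNU (7.40 CPM) and BNED (267 CPM). In PMMA bone it had the lowest, 15.2 CPM, where rats 3, 4 and 1 had 26.0, 45.8 and 98.5 CPM. The sum of the 7 mast cell genes in rat 2 was the lowest of both bone groups, at 329 CPM in PMMA bone and 761 CPM in BNED. In PFNU rat 4 led the mast cell sum with 289 CPM against 101, 145 and 113 CPM in rats 1 to 3.

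Comparison of the membrane with the empty-gap tissue addressed how a spacer alters the tissue that forms in the gap. Mcpt2, Tph1, Hdc and Kit, hence 4 of the 10 genes, were called lower in IM by edgeR's quasi-likelihood test at an adjusted p under 0.05, and none was called higher. Over all 12857 genes tested 0.498% were called lower and 0.366% higher in this comparison. Nothing is read from the members' count beyond that, since the comparison may have served to choose them. Mcpt2 differed by −3.82 on the log2 scale (SE 0.52, adjusted p = 0.00691), a level 14.2-fold lower in the membrane. Tph1 differed by −1.77 (SE 0.31, adjusted p = 0.0216). Hdc differed by −1.71 (SE 0.35, adjusted p = 0.0349) and Kit by −1.12 (SE 0.22, adjusted p = 0.0300). Within each of the 4 rats all 4 genes were lower in the membrane than in the tissue of the empty gap.

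The other 6 genes missed the threshold. Cpa3 had −1.90 (adjusted p = 0.0787), Fcer1a −1.62 (adjusted p = 0.0819) and Cma1 −1.66 (adjusted p = 0.106), each with a lower membrane in 4 of 4 rats. Prg2 had −2.58 (adjusted p = 0.159) and Epx −2.96 (adjusted p = 0.226). Without PFNU of rat 2 these were −1.12 (adjusted p = 0.604) and −1.53 (adjusted p = 0.685), and without IM of rat 2 Epx had −4.30 (adjusted p = 0.218). In the PFNU library of rat 2 Prg2 had 276 counts and Epx 80, against at most 56 and 22 in the other 3. Prg3 had −0.63 with a 95% interval of −2.70 to 1.43 (adjusted p = 0.827) and was lower in 2 of 4 rats. Without PFNU of rat 2 its sign turned (1.58, on 4 counts over the other 3 PFNU libraries). The median of the 10 genes was −1.74 against 0.01 over all genes tested. An unadjusted p under 0.05 was reached by 9 of the 10, against 1997 of all 12857 genes. The libraries of the 2 groups did not overlap for 6 of the 10, with IM the lower, against 3.31% of all genes.

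These calls depended on the choice of fit and on single libraries. Mcpt2 was called whichever library was left out, with log2 differences of −4.34 to −3.42 over all alternatives. It was lost only in a fit of the 8 IM and PFNU libraries alone (adjusted p = 0.153), in which no gene of the table was called. Kit was lost without IM of rat 1 (adjusted p = 0.0629) or rat 2 (0.0694), and without PFNU of rat 2 (0.0920), rat 3 (0.0699) or rat 4 (0.108). Tph1 was lost without IM of rat 2 (0.0516) or PFNU of rat 4 (0.0633), and Hdc in 6 of 8 such fits, with adjusted p up to 0.132. DESeq2 called 8 of the 10 genes lower, adding Cpa3, Cma1, Fcer1a and Prg2 with adjusted p of 0.00453, 0.0196, 0.00910 and 0.0205. Over all genes it called 563 in either direction, against 111 by edgeR.

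Blood and marrow genes were examined in the same libraries. Erythroid genes (10 of 12 listed were in the table) took 0.0269 to 0.115% of the counts in IM and 0.0702 to 0.354% in PFNU. The neutrophil list took 0.00153 to 0.00424% in IM and 0.00354 to 0.0100% in PFNU. Of its 11 genes 4 were called lower in IM (Mmp8, S100a9, Ngp and S100a8, −3.75 to −2.95), and of the 10 erythroid genes none. All 10 erythroid genes and 10 of 11 neutrophil genes had a negative log2 difference, and Lcn2 had 0.14. In the membrane 1 to 3 of the 11 neutrophil genes were at 0 counts. The part of blood or marrow content in the members' levels was not tested.

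**Figure D2:**
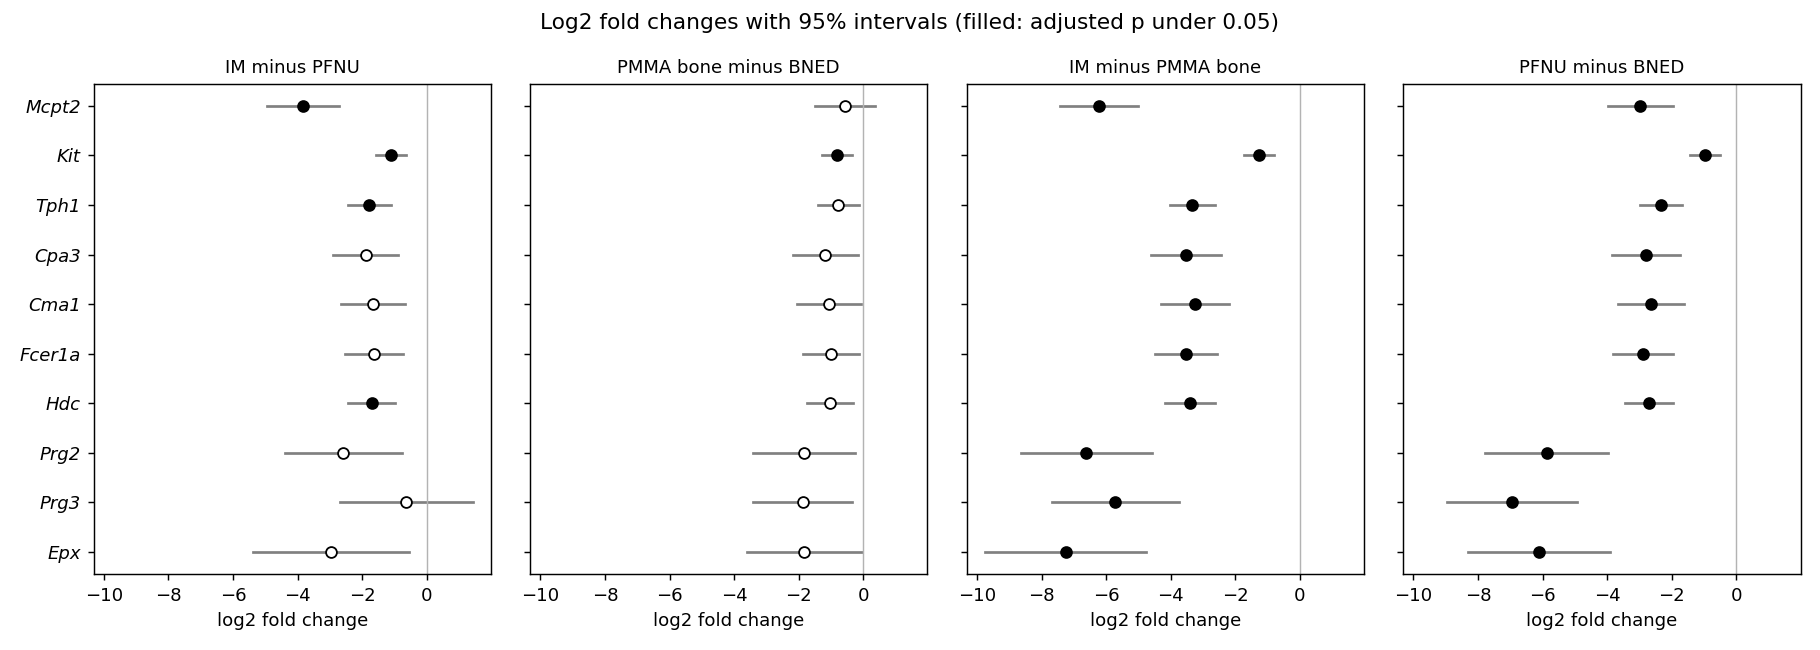
Log2 fold changes of the 10 genes (horizontal axis) with 95% intervals in 4 comparisons, filled where the adjusted p was under 0.05. In the left pair of panels, for spacer against empty gap, 4 genes and 1 gene are filled, and in the right pair, for defect tissue against bone, all 10 are filled.

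Beside the spacer, bone had lower levels of all 10 genes than bone beside the empty gap, and Kit alone was called. Kit differed by −0.83 (SE 0.22, adjusted p = 0.0429), a level 1.77-fold lower. Over all genes 1.4% were called lower and 3.51% higher in this comparison. With the rat as a block Kit was lost (adjusted p = 0.0524) and Hdc was called instead (−1.06, adjusted p = 0.0435). Hdc had −1.02 (adjusted p = 0.0888) without the block, Cpa3 −1.18 (0.146), Cma1 −1.06 (0.174), Fcer1a −0.99 (0.155) and Tph1 −0.77 (0.132). Mcpt2 had the smallest difference of the 10, −0.57 with a 95% interval of −1.49 to 0.36 (adjusted p = 0.446). The eosinophil genes had the largest, −1.83 for Prg2 (0.150), −1.87 for Prg3 (0.135) and −1.82 for Epx (0.199).

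Each of the 10 genes was lower beside the spacer in 4 of 4 rats. The median of the 10 was −1.04 against −0.01 over all genes. An unadjusted p under 0.05 was reached by 9 of the 10, against 3130 of all 12857 genes. For 5 genes (Kit, Cpa3, Cma1, Fcer1a and Hdc) the groups did not overlap, against 7.05% of all genes. Within rats the eosinophil genes spread widely. For Prg2 the difference on the log2(CPM + 0.5) scale was −0.51 in rat 1 and −3.98 in rat 2.

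Without the PMMA bone library of rat 1, in which erythroid counts were high, 2 genes were called lower. These were Kit (−0.93, adjusted p = 0.0149) and Prg2 (−2.51, adjusted p = 0.0396), while Prg3 had −2.28 (adjusted p = 0.0600) and Epx −2.64 (adjusted p = 0.0543). Over all genes the calls rose from 631 to 2578 when it was left out. Kit was lost whenever any of the other 7 bone libraries was left out, and so were all calls among the 10 genes. In the fit of the 8 bone libraries alone 6 genes were called lower (Kit, Cma1, Cpa3, Fcer1a, Hdc and Prg3). The calls over all genes rose above 631 in that fit as well.

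Neutrophil genes were 0.0255 to 0.0619% of the counts in PMMA bone and 0.131 to 0.215% in BNED, and 4 of 11 were called lower (Ngp, Camp, S100a9 and S100a8, −2.83 to −2.14). The erythroid share was 0.355 to 6.39% in PMMA bone and 3.40 to 5.97% in BNED, and no erythroid gene was called. Without rat 1 the PMMA bone libraries had 0.355, 0.357 and 1.09% erythroid counts, all below the 4 BNED libraries, and 0.0255 to 0.0334% neutrophil counts. Erythroid share and members were then both lower beside the spacer. Their part in the lower mast cell and eosinophil levels was not tested. Genes of other Kit-bearing cells were examined for Kit itself. Of 4 tested genes of melanocytes and pacemaker-type cells 1 was called, Tyrp1, a pigment enzyme with 3 counts over the 4 BNED libraries and 141 over the 4 PMMA bone libraries. Its level was 46.9 times higher beside the spacer, with a 95% counting interval of 15.7 to 230.1. In PFNU against BNED, Tyrp1 had 73 against 3 counts, a ratio of 30.7 (10.1 to 153). None of the 4 tested progenitor genes was called between the bones. Flt3 had −0.89, Prom1 −0.85 and Gfi1b −1.23 (adjusted p = 0.147, 0.156 and 0.320), and Meis1 had the opposite sign at 0.46 (0.192). The part of progenitors in the Kit difference was not tested.

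**Figure D3:**
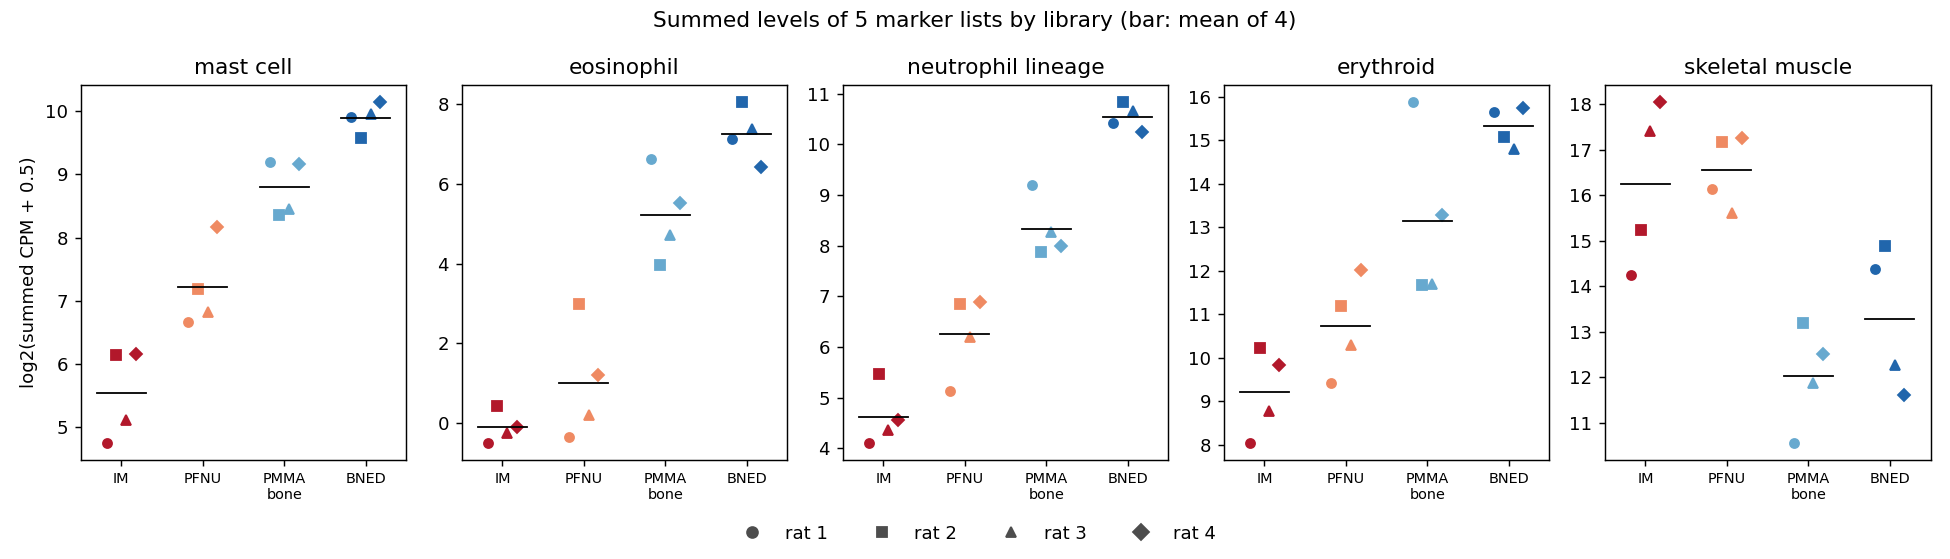
Summed level of 5 marker lists in each library (log2 of summed CPM plus 0.5 on the vertical axis) by group, with a marker shape per rat and a bar at the mean of 4. The mast cell, eosinophil and neutrophil sums rise in the same order of groups, and the PMMA bone library of rat 1 lies with BNED on the erythroid panel.

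Whether the spacer's difference was larger in the gap than in bone was tested as the difference of both differences. No gene of the 12857 was called by edgeR (0% higher, 0% lower), with 1149 genes at an unadjusted p under 0.05 and 129 called by DESeq2. Mcpt2 had the largest value of the 10 genes, −3.26 (SE 0.67, unadjusted p = 0.000183, adjusted p = 0.181). DESeq2 called it (adjusted p = 0.00116), as did edgeR without PMMA bone of rat 1 (adjusted p = 0.0438), and its adjusted p over all alternatives ran from 0.00116 to 0.482. Tph1 had −1.003 (adjusted p = 0.508). The other 5 mast cell genes lay between −0.72 and −0.29, and Prg2, Prg3 and Epx at −0.75, 1.24 and −1.14, each with an interval across 0.

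Mcpt2 thus had the widest gap between membrane and empty-gap tissue and the narrowest between the bones. The counts of the other mast cell genes were set against Cpa3 in the same library to see which moved with it. This ratio was chosen after the values were seen and is described without a test. Counts of Mcpt2 are uncertain, because reads shared with related Mcpt genes may have been split between them. Per 100 Cpa3 counts, the IM libraries of rats 1 to 4 had 2.86, 1.04, 0.926 and 2.10 Mcpt2 counts, and PFNU had 5.54, 8.91, 5.01 and 5.39. In PMMA bone it had 8.78, 11.9, 12.6 and 10.3, and in BNED 6.63, 5.28, 8.94 and 6.30. All membranes lay below all other libraries, and 3 of 4 PMMA bone libraries lay above all BNED libraries.

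Cma1 per 100 Cpa3 ran from 58.0 to 103 in IM, 66.6 to 76.1 in PFNU, 56.0 to 79.8 in PMMA bone and 55.9 to 66.7 in BNED, and all 4 groups overlapped. Fcer1a ran from 7.91 to 13.7 in IM, 6.80 to 12.5 in PFNU, 9.91 to 11.7 in PMMA bone and 8.60 to 10.5 in BNED, also with overlap. Hdc ran from 8.71 to 22.6, 9.68 to 13.5, 9.21 to 13.6 and 8.43 to 14.1 in the same order of groups, and these overlapped too. Tph1 ran from 4.54 to 26.6 in IM, 7.08 to 11.6 in PFNU, 7.06 to 9.47 in PMMA bone and 4.93 to 8.08 in BNED, with overlap between all groups. The ratios of Cma1, Fcer1a, Hdc and Tph1 to Cpa3 thus overlapped between IM and BNED, whose Cpa3 means differed by a factor of 26.1. Kit moved the other way, with 128, 28.7, 120.0 and 65.4 per 100 Cpa3 in IM and 64.4, 45.6, 62.0 and 19.9 in PFNU. In PMMA bone it had 11.7 to 17.7 and in BNED 7.83 to 13.4, so every defect tissue lay above every bone.

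**Figure D4:**
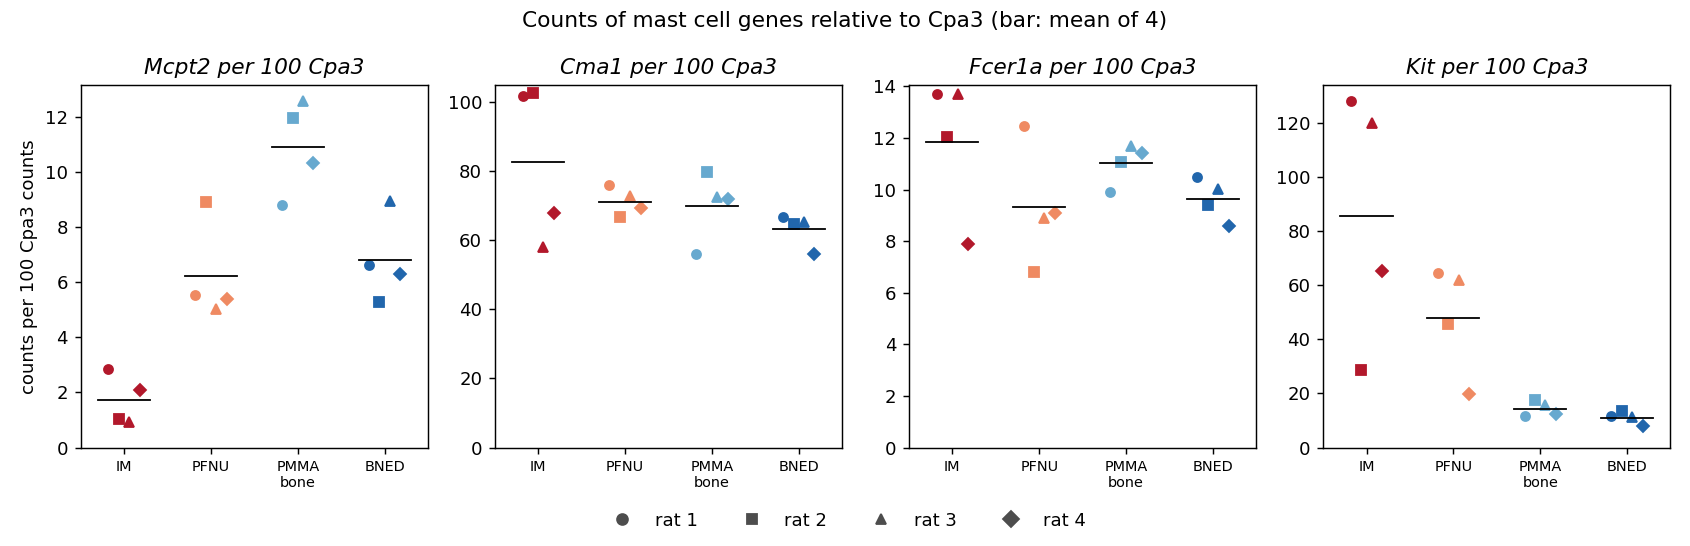
Counts of Mcpt2, Cma1, Fcer1a and Kit per 100 counts of Cpa3 in the same library (vertical axes from 0), by group, with a marker shape per rat and a bar at the mean of 4. The membranes are lowest for Mcpt2, the defect tissues highest for Kit, and the groups overlap for Cma1 and Fcer1a.

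Between defect tissue and the bone of the same limb all 10 genes were called lower in the defect tissue, on both sides. For Prg3 and Epx part of this was built in, because they passed the low-count filter only through their counts in bone. On the spacer side 11% of all genes were called lower and 11.3% higher, and on the empty side 15.2% and 15%. The libraries did not overlap for any of the 10 on either side, against 11.7% and 21% of all genes with the defect tissue lower. These 2 comparisons share no library with each other, but each shares its libraries with the spacer comparisons above. In IM against PMMA bone the difference was smallest for Kit at −1.27 (SE 0.22, adjusted p = 0.00196) and largest for Epx at −7.26 (SE 1.18, adjusted p = 0.00132). Mcpt2 had −6.23 (SE 0.57, adjusted p = 2.38e-05), a level 75.1-fold lower in the membrane than in the bone it faced. Cpa3, Fcer1a, Hdc, Tph1 and Cma1 lay between −3.53 and −3.24, and Prg2 and Prg3 at −6.62 and −5.71. Without the PMMA bone library of rat 1, Epx had −6.44, Prg2 −5.95 and Prg3 −5.30 (adjusted p = 0.00309, 0.00135 and 0.00343). Without the membrane of rat 2, Epx had −8.58 and Prg3 −6.50 (adjusted p = 0.00293 and 0.00259).

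In PFNU against BNED, Kit had −0.98 (SE 0.22, adjusted p = 0.0042), Mcpt2 −2.97 (SE 0.47, adjusted p = 0.000500) and Prg3 −6.95 (SE 0.95, adjusted p = 0.000228). The other mast cell genes lay between −2.90 (Fcer1a) and −2.33 (Tph1), and Prg2 and Epx at −5.87 and −6.11. Without PFNU of rat 2, which held 24 of the Prg3 counts against at most 3 in another PFNU library, Prg3 had −9.16 (adjusted p = 0.000482). Prg2 then had −7.33 and Epx −7.55 (adjusted p = 0.000482 and 0.00107). Members had medians of −3.53 on the spacer side and −2.85 on the empty side, against 0.03 and 0.04 over all genes. In all 4 rats each gene was lower in the defect tissue than in the bone of the same limb. All 10 calls on both sides held under each alternative tried. In the same 2 comparisons all 10 erythroid genes and 10 of 11 neutrophil genes were called lower in the defect tissue. At least Ctsg, Prtn3 and Ltf of the neutrophil list passed the low-count filter only through their counts in bone. Of the skeletal muscle genes, 8 of 10 were called higher and 1 lower on the spacer side, and 7 of 10 higher on the empty side. The part of marrow or muscle in the members' differences was not tested.

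Other granule genes of mast cells gave more calls against bone than between spacer and empty gap. Of 10 tested granule genes 3 were called lower in IM than in PFNU. Mcpt10, a granule protease, had −2.56 (SE 0.46, adjusted p = 0.0254), and Slc18a2, the vesicle transporter that loads histamine and serotonin, had −1.75 (SE 0.36, adjusted p = 0.0349). Mcpt1, a chymase, had −3.56 (SE 0.73, adjusted p = 0.0349) with at most 7 counts in a membrane library. Counts of Mcpt1, Mcpt1l1, Mcpt2, Mcpt9, Mcpt10 and Mcpt8l2 are uncertain, because reads shared by related genes of this family may have been split between them. Between the bones only Srgn, the serglycin core protein that holds proteases in the granule, was called (−1.12, SE 0.23, adjusted p = 0.0230). Of the 10 tested, 9 were negative and 1 positive, with −0.71 for Tpsab1, −0.76 for Tpsb2 and −1.08 for Mcpt1l1 (adjusted p = 0.279, 0.251 and 0.158). The part of neutrophils and other cells in the Srgn difference was not tested. Of the same 10 genes 8 were called lower in IM than in PMMA bone, with the lowest p for Mcpt10 (−4.43), Slc18a2 (−3.17), Tpsab1 (−3.47) and Tpsb2 (−3.19), the last 2 being tryptases. In PFNU against BNED 8 were called lower as well, with the lowest p for Srgn (−2.05), Slc18a2 (−2.55), Tpsb2 (−2.87) and Tpsab1 (−2.55). Among the 10 genes tested, Mcpt1, Mcpt9 and Tpsg1 passed the low-count filter only through their counts in bone. Part of their difference from bone was thus built in.

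Of 10 receptor and signalling genes none was called between spacer and empty gap in either tissue. Ms4a2, the beta chain of the high-affinity IgE receptor, had −1.81 in IM against PFNU (adjusted p = 0.0670) and −1.23 between the bones (adjusted p = 0.105). It was called lower in IM than in PMMA bone (−3.47, adjusted p = 0.000387) and in PFNU than in BNED (−2.89, adjusted p = 0.000482). Hrh4, a histamine receptor of mast cells and eosinophils, Lat2, an adaptor, and Syk, a kinase below the receptor, were called lower on both sides as well (−3.02 to −1.21). Lyn was called on the empty side alone (−1.01, adjusted p = 0.0237). Il1rl1, the receptor for interleukin-33, had the opposite sign in the membrane, 2.17 above PMMA bone (adjusted p = 0.0311), with membranes from 9.95 to 208 CPM. Fcer1g, the signalling chain that the IgE receptor shares with other Fc receptors, was not called in any of the 4 comparisons (adjusted p = 0.266 to 0.633).

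Growth and transcription factor genes differed in sign. Gata2 was called lower in defect tissue on both sides, at −1.56 (adjusted p = 0.00294) in IM and −1.18 (adjusted p = 0.00729) in PFNU. Mitf was called higher on both sides, at 0.73 (adjusted p = 0.0218) and 0.72 (adjusted p = 0.0173). Il33, an alarmin of stromal and endothelial cells that stimulates mast cells, was 2.59 higher in IM than in PMMA bone (adjusted p = 0.000524) and 2.97 higher in PFNU than in BNED (adjusted p = 0.000157). Il9r was called lower in IM than in PMMA bone (−2.54, adjusted p = 0.0137). Kitlg, the ligand of Kit, was not called and had 97.8 ± 32.6, 146 ± 12.7, 165 ± 62.4 and 210.2 ± 57.4 CPM (SD, n = 4) in IM, PFNU, PMMA bone and BNED. None of the 9 genes was called between spacer and empty gap in either tissue.

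**Figure D5:**
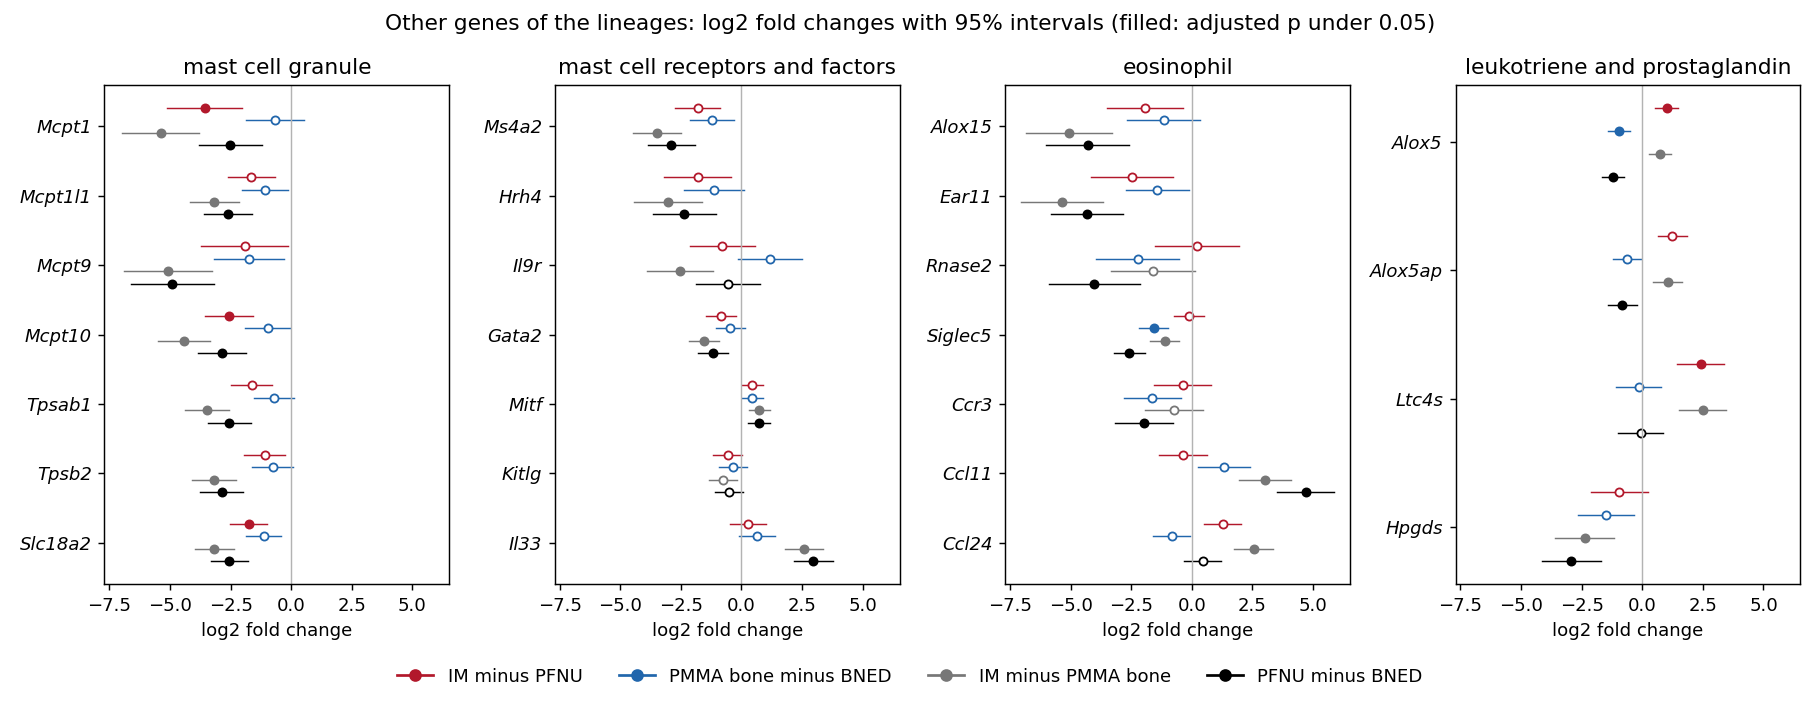
Log2 fold changes (horizontal axes) with 95% intervals in 4 comparisons, for other genes of the 2 lineages and of factors that act on them. Points are filled where the adjusted p was under 0.05. Points of the granule protease genes lie left of 0 throughout, with some intervals across 0. Genes with filled points right of 0 include Il33, Mitf, Ccl11, Ccl24, Alox5 and Ltc4s, and Alox5 also has filled points left of 0.

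Among 16 tested genes of amine and lipid mediators, 2 were called higher in IM than in PFNU and 1 lower. Ltc4s, the leukotriene C4 synthase, was called higher in IM, 2.40 above PFNU (SE 0.45, adjusted p = 0.0263), at 4.05 ± 1.72 against 0.763 ± 0.449 CPM (SD, n = 4). Alox5, the 5-lipoxygenase that starts leukotriene synthesis, was called higher in IM (1.004, SE 0.22, adjusted p = 0.0428) and lower in PMMA bone than in BNED (−0.95, SE 0.22, adjusted p = 0.0294). These and Slc18a2 were the only calls of the list for spacer against empty gap, and Alox5ap, the partner protein of 5-lipoxygenase, had 1.24 between IM and PFNU (adjusted p = 0.0545). On the spacer side 8 were called higher and 4 lower in the defect tissue, and on the empty side 5 and 5. Ltc4s was again higher in IM than in PMMA bone (2.49, adjusted p = 0.00251), and Alox5 was lower in PFNU than in BNED (−1.21, adjusted p = 0.00107). Slc6a4, the serotonin transporter, was lower on both sides (−2.51, adjusted p = 0.000818, and −2.57, adjusted p = 0.000340). Maoa, which breaks serotonin down, was higher on both sides (1.10, adjusted p = 0.0031, and 1.37, adjusted p = 0.00039).

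Other genes tied to eosinophils (receptors, ligands and enzymes) differed in sign. Those called higher in defect tissue than in bone were eotaxin genes, which encode ligands for eosinophils. Of 10 tested none was called between IM and PFNU. Between the bones Siglec5, a sialic acid receptor, was called (−1.58, SE 0.29, adjusted p = 0.0174). In IM against PMMA bone Alox15, the 15-lipoxygenase, had −5.08 (adjusted p = 0.00144) and Siglec5 −1.13 (adjusted p = 0.0134). Ear11, an eosinophil ribonuclease, had −5.35 there (adjusted p = 0.000758). It passed the low-count filter only through its counts in bone, so part of its difference from bone was built in. The eotaxin genes had the opposite sign there, at 3.02 for Ccl11 (adjusted p = 0.00169) and 2.55 for Ccl24 (adjusted p = 0.000715). In PFNU against BNED 6 were called lower and 1 higher. Ccl11 was the gene called higher, at 4.70 (adjusted p = 0.000120), and Siglec5 (−2.59), Ear11 (−4.33) and Alox15 (−4.30) had the lowest p of those lower. Ccl11 thus had 8.29 ± 4.39 CPM in IM and 10.5 ± 4.97 in PFNU against 1.02 ± 0.352 in PMMA bone and 0.404 ± 0.233 in BNED (SD, n = 4). Between defect tissue and bone this was the reverse of Epx, while both genes had a lower mean in IM than in PFNU. The genes of interleukin-5, interleukin-4 and interleukin-13 were in the table and were not tested, as they had at most 7 counts in a library.

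Basophils share Fcer1a, Ms4a2 and Hdc with mast cells, so their own genes are given beside them. Mcpt8l2, a basophil-type granzyme, had 0.256 ± 0.290, 2.44 ± 1.67, 16.6 ± 6.98 and 33.2 ± 8.03 CPM in IM, PFNU, PMMA bone and BNED (SD, n = 4). It was called lower in IM than in PMMA bone (−6.01, adjusted p = 0.000423) and in PFNU than in BNED (−3.77, adjusted p = 0.00155), and not between IM and PFNU (−3.24, adjusted p = 0.0589). Prss34, a basophil protease, had 0 counts in all 4 membranes and 65 over the PMMA bone libraries, at least 19.5-fold lower in IM when 3 counts over the group are allowed. It had 1 count over PFNU and 271 over BNED, a ratio of 214.5 with a 95% counting interval of 38.2 to 8504. Prss34 passed the low-count filter only through its counts in bone, so part of both differences was built in. Of 3 tested basophil genes none was called between spacer and empty gap. Of 4 tested progenitor genes Gfi1b, a repressor of megakaryocyte and erythroid cells, was called on both sides (−6.31 in IM, adjusted p = 0.000813, and −4.24 in PFNU, adjusted p = 0.0019). The part of basophils and progenitors in Fcer1a, Hdc and Kit was not tested.

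Within the groups the 10 genes tended to vary together by lineage, with Kit as an exception. After each group's mean was removed from the log2 levels, the Pearson correlation over the 16 libraries had a median of 0.60 for the 21 pairs of mast cell genes (0.14 to 0.94). For the 3 pairs of eosinophil genes it was 0.92 (0.82 to 0.95), and for the 21 pairs with 1 gene of each lineage 0.23 (−0.02 to 0.53). With group means left in, Spearman's rho had medians of 0.96, 0.92 and 0.89. Kit, with group means removed, had 0.14 to 0.52 with the other mast cell genes and 0.19 to 0.37 with the eosinophil genes. All eosinophil gene levels in IM lay under the 0.5 CPM added before the log, which damps their variation there. These points share 4 rats and 4 groups, and the values are a description.

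The genes whose levels followed Cpa3 and Epx most closely were sought among 11490 other genes whose mean reached 1 CPM, by Spearman's rho over the 16 libraries. For Cpa3 they were Mcpt1l1 (0.994), Btla, Ell3, Mcpt10 and Ms4a2 (0.991 each). Mcpt1l1, Mcpt10 and Ms4a2 are mast cell genes, and Btla is a receptor of lymphocytes. With group means removed, Mcpt1l1 and Ms4a2 kept correlations of 0.97 with Cpa3, and Btla and Ell3 had 0.78 and 0.77. For Epx they were Mcpt9 (0.982), Ctsg (0.974), Elane, Fut2 and Serpinb10 (0.971 each). Mcpt9 was listed here with the mast cell granule genes, and it kept a correlation of 0.845 with Epx once group means were removed. Ctsg and Elane are granule proteases of neutrophil precursors, and Ctsg kept 0.95. The marrow content of the libraries differed in the same order of groups, and its part in these ranks was not tested.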

How the data were processed

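RNA was taken from 16 rat tissue samples with Trizol and DNase, and stranded poly-A libraries (TruSeq, 12 PCR cycles) were read from both ends over 100 cycles, per the labels. The authors deposited raw counts, 1 whole number for each gene symbol and library, without normalisation. Build rn5 and the tools TopHat2 2.0.13, Bowtie2 2.2.1, FastQC 0.11.3 and DESeq2 are listed in the submitters' processing notes. The counting program, annotation and strand setting are not given in the sources used here, so reads of overlapping or antisense genes cannot be told apart. No gene positions are printed in build rn5. Promoters come from RefSeq with build GRCr8.

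Groups and rats were taken from the labels, which name the rat of each sample. Group means over all 16 libraries were fitted with edgeR 4.0.16 (limma 3.58.1, R 4.3.3), with TMM scaling and the filterByExpr filter (12857 of 14476 genes). The quasi-likelihood F-test was used with Benjamini-Hochberg adjustment over all genes tested, at 0.05. Every adjusted p comes from it unless another tool is named, and the standard error is the log2 fold change over the root of F. Each comparison is coded as the group named first minus the other. CPM are counts per 1000000 counts of TMM-scaled library size, and log levels are log2(CPM + 0.5). A fitted difference can depart from within-rat values on that scale for genes with few counts. Intervals and limits on counts of 0 cover counting error only, since PCR copies were not marked. The scripts were tested on simulated data.

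The 10 genes and the 13 companion lists were chosen with earlier results of these data known. All 10 genes are named. Of a companion list the called genes are named where 6 or fewer were called, otherwise the 4 with the lowest p; erythroid, neutrophil and muscle genes are given against bone as counts only. For likeness, 5 genes per anchor are named.

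Pairing comes from the rat named in the labels. Deviations from group means of libraries of the same rat correlated at −0.43 to 0.65 across genes. Libraries within a group correlated at 0.936 to 0.993 on the log2 scale and differed by more than counting noise. Alternatives were RLE size factors, no filter, DESeq2 1.42.0, the rat as a block, each library left out, and only the groups compared. Fibrous matrix genes, a companion list used as a check of tissue, had 1 of 5 called higher in IM than in PFNU (Fbn1, 1.26) and 2 of 5 higher in PMMA bone than in BNED (Col3a1, 1.70, and Postn, 1.41). Against bone 2 were higher in IM (Fbn1, 1.77, and Dcn, 0.79) and 3 in PFNU (Fbn1, 0.96, Col3a1, 1.69, and Postn, 1.11). Muscle genes called lower were Myh7 (−7.52) and Myh2 (−4.07) in IM against PFNU and Myh4 (−3.73) in PMMA bone against BNED. Bone genes called lower were Ibsp (−3.27) and Bglap (−3.02) in IM against PMMA bone and Bglap (−2.71) in PFNU against BNED.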

Additional observations from a re-analysis of the deposited data

Results flagged for a closer look

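The level of Fcer1a in PFNU of rat 4 was 11.9 CPM, far from the other 3 PFNU libraries at 3.70 to 4.48 CPM. The level of Prg3 in PFNU of rat 2 was 0.467 CPM, far from the other 3 at 0 to 0.0623 CPM. It rests on 24 counts. In both cases the gap to the nearest other library took up more of the group's range than Dixon's 95% value for 4 samples allows. Of 40 gene and group combinations checked 2 stood out so, and chance alone gives about 1 in 20.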

How the results depend on the processing

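All 10 genes stayed called lower in IM against PMMA bone and in PFNU against BNED under every alternative run. For IM against PFNU, DESeq2 called 8 of the 10 genes, the fit of the 2 groups alone 0, and leaving out a library 1 to 4. For PMMA bone against BNED these were 2, 6 and 0 to 2. For the difference of both differences DESeq2 called 1, and leaving out a library 0 to 1. Over all genes, IM against PFNU had 111 calls, 563 with DESeq2, 0 with 2 groups, 47 with the replicate block for rat and 11 to 244 with a library left out. PMMA bone against BNED had 631, 1518 with DESeq2, 1767 with 2 groups and 0 to 2578 with a library left out. The difference of differences had 0, 129 with DESeq2 and 0 to 199. IM against PMMA bone had 2860, 908 with 2 groups and 1818 to 4047 with a library left out. RLE size factors split the IM and PFNU calls into 27 higher and 62 lower, against 47 and 64. The sign turned in 3 cases, each without PFNU of rat 2, which held most eosinophil gene counts of that group. With a library left out, Prg3 in IM against PFNU ran from −1.43 to 1.58, and in the difference of differences Epx ran from −2.47 to 0.29 and Prg2 from −1.11 to 0.71. Apart from Kit and Hdc between the bones, the replicate block for rat (pairing by animal) changed no call of the 10 genes. The cause of the other shifts was not tested. Prg3 and Epx had 0 to 80 counts a library in the defect tissue, so their values there carry wide counting error.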
